A study of Mus musculus with 8 samples.

Results

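Figla and the zona pellucida genes Zp1, Zp2 and Zp3 are described here in oocytes of newborn mice with and without Rbpms2, an RNA-binding protein gene. The 4 genes were chosen by name, as a transcription factor gene and the egg coat genes that the factor is known to activate, and all 4 were found among the 21959 genes of the table. The 8 libraries, 4 per genotype, came from ovaries of mice at postnatal day 1. Control mice were wild type (WT in the labels) and the others carried an Rbpms2 knock out, and the labels give no strain, allele or Cre line. For each library, 5 to 10 cells taken for primordial oocytes were picked by hand into 1 tube, and their mRNA was amplified for 18 cycles. Whether the tubes of a genotype hold cells of different animals is not stated, and the p-values therefore measure tube-to-tube spread, which may be technical. In a pooled tube, fewer cells that express a gene and less RNA per cell cannot be told apart.

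FIGLA is a germ cell transcription factor with a basic helix-loop-helix domain. It binds DNA as a dimer with an E protein, such as the product of Tcf3, at E-boxes (the sequence CANNTG) upstream of the zona pellucida genes. The zona pellucida is the glycoprotein coat that the growing oocyte secretes. ZP2 and ZP3 form its filaments, ZP1 crosslinks them, and the coat is where sperm bind. Mouse females without FIGLA do not form primordial follicles, and mouse oocytes make no ZP4 because that gene is a pseudogene in this species.

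The upstream sequences of Figla and Zp3 are shown because E-boxes are the known binding sequence of FIGLA and its partners. RefSeq promoter sequences (GRCm38.p6) matched 2 of the 4 genes, Figla and Zp3. Each sequence is the 250 bases before the RefSeq transcription start, 5′ to 3′ on the strand of the gene, with every CANNTG in capitals. The Figla window is chr6:86016941-86017190 and the Zp3 window is chr5:135979855-135980104, both on the plus strand. In the GENCODE M21 annotation the Figla gene begins earlier, at 86016171, so the Figla window lies within the annotated gene.
Figla: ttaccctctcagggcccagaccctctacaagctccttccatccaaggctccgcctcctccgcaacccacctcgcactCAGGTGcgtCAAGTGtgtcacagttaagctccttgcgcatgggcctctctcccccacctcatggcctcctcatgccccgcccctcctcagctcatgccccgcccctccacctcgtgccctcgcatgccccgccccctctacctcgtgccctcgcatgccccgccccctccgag
Zp3: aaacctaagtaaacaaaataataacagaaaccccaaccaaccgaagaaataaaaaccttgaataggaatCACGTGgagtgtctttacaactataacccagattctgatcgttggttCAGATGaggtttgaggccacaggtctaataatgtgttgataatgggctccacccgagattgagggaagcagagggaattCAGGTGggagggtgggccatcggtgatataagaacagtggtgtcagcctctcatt
The Figla window holds 2 E-boxes, CAGGTG at 173 to 168 and CAAGTG at 164 to 159 bases before the start. The Zp3 window holds 3, CACGTG at 181 to 176, CAGATG at 134 to 129 and CAGGTG at 55 to 50 bases before the start. CANNTG reads as CANNTG on the other strand as well, so each match counts for both strands. Of 32851 windows of this length upstream of mouse genes, 66.2% hold at least 1 E-box. At least 2 were found in 31.8% of them and at least 3 in 12.2%. CAGGTG on either strand was in 17.2% of the windows and CACGTG in 6.02%. A match is a description of these letters and not of a bound site.

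Cell identity was checked before the comparison. The germ cell markers Ddx4, Dazl, Kit, Dppa3, Mael and Sycp3 were all above 0 in every library, with summed levels of 3159 to 5106 FPKM (fragments per kilobase of exon, scaled to library depth) in wild type and 2099 to 3326 FPKM in knockout. Most of the wild-type sum was Dppa3, which had a mean of 3027 FPKM there and 135.5 FPKM in knockout. The 6 markers did not move as one. Kit and Dppa3 were called lower, and Sycp3 (3.49-fold), Ddx4 (2.85-fold), Mael (2.50-fold) and Dazl (2.08-fold) were called higher. None of the 6 overlapped between genotypes. Over all tested genes, 25.6% were called lower, 17.7% were called higher and 39.9% did not overlap in either direction. Somatic markers were also present and uneven. The 10 granulosa markers summed to 1.65 to 59.1 FPKM in wild type and 12.9 to 434.2 FPKM in knockout, and the 8 stromal markers to 3.45 to 76.2 FPKM and 8.02 to 324.8 FPKM. The highest sums of both lists were in wild-type replicate 3 and knockout replicates 2 and 3. The 6 endothelial markers reached 264.5 FPKM in knockout replicate 1 and lay at 5.62 FPKM or below elsewhere. The 8 immune markers summed to 7.05 to 20.1 FPKM in wild type and 16.5 to 387.8 FPKM in knockout, with the highest sum in knockout replicate 3. In wild-type replicate 1, 6 of them were at 0. Of the 5 tested, Mrc1 and Lyz2 were called higher (limma adjusted p = 6.00e-05 and 0.00954) and 3 did not pass, beside 17.7% of all tested genes called higher. Both passed the filter through knockout, and Mrc1 had 4.35 to 16.4 FPKM there and at most 0.130 FPKM in wild type. The 6 erythroid markers ranged from 11.9 to 5354 FPKM in wild type and from 99.6 to 3212 FPKM in knockout. Rbpms2 itself had 135.8 to 212.8 FPKM in wild type and 31.0 to 58.3 FPKM in knockout (limma adjusted p = 7.26e-05), and the labels do not say which part of the gene was removed. Read totals, worked back from the smallest steps in FPKM, came to 8321943 to 11941360 in wild type and 9564416 to 14542893 in knockout. Floors and intervals from these reads cover counting error only, because amplified reads without molecular identifiers are not independent molecules.

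Figla RNA was lower in knockout, with no overlap between genotypes, and it was still readily measured there. The gene (ENSMUSG00000030001) lies on chromosome 6 from 86016171 to 86020996 on the plus strand of GRCm38 and overlaps no other annotated gene. Wild-type replicates 1 to 4 had 820.5, 749.2, 693.3 and 794.9 FPKM, whereas the 4 knockout tubes, in the same numbering, held 104.7, 261.5, 103.9 and 240.5 FPKM. The wild-type libraries lay close together, with a coefficient of variation of 7.31%, and the knockout libraries fell into a lower pair (replicates 1 and 3) and a higher pair (replicates 2 and 4), with a coefficient of variation of 47.9%. The mean went from 764.5 ± 55.9 to 177.7 ± 85.1 FPKM (SD, n = 4 each), so 23.2% of the wild-type level remained, and the highest knockout library was 2.65-fold below the lowest wild-type library. The log2 fold change, computed on log2(FPKM + 1), was -2.23 (standard error 0.30, limma adjusted p = 0.00024 over 11235 tested genes). The exact two-sided permutation p was 0.0286, the smallest that 4 against 4 libraries allow. By mean level Figla ranked 40 among all 21959 genes in wild type and 314 in knockout.

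The zona genes went from among the most abundant transcripts to a level at or near 0. Zp1 (ENSMUSG00000024734, chromosome 19, 10914287 to 10920632, minus strand), whose product crosslinks the zona filaments, had 184.6, 185.8, 225.8 and 308.6 FPKM in wild-type replicates 1 to 4. In knockout it had 0.432 FPKM in replicate 1, which is 10 reads, and 0 reads in replicates 2, 3 and 4. Wild-type and knockout libraries were thus separated by a wide gap, with the lowest wild-type library 427.8-fold above the highest knockout library.

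Zp2 (ENSMUSG00000030911, chromosome 7, 120126772 to 120145291, minus strand), which encodes the zona protein that sperm bind, had 810.9, 511.2, 387.3 and 709.3 FPKM in wild-type replicates 1 to 4. In knockout it had 0 reads in replicates 1, 2 and 3 and 0.960 FPKM, or 25 reads, in replicate 4. Zp3 (ENSMUSG00000004948, chromosome 5, 135980099 to 135988624, plus strand), the filament partner of ZP2, had 897.9, 443.8, 462.4 and 1091 FPKM in wild-type replicates 1 to 4. Its knockout libraries had 0 reads in replicates 1 and 2, 0.444 FPKM (7 reads) in replicate 3 and 0.158 FPKM (2 reads) in replicate 4. No library held reads of all 3 zona genes in knockout, and no single knockout library carried the remaining reads of every gene. Zp1, Zp2 and Zp3 overlap no other annotated gene, so reads of an overlapping gene do not enter these values.

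The means were 226.2 ± 58.2 FPKM for Zp1, 604.7 ± 191.0 FPKM for Zp2 and 723.9 ± 322.6 FPKM for Zp3 in wild type (SD, n = 4 each). In knockout they were 0.108 ± 0.216, 0.240 ± 0.480 and 0.151 ± 0.209 FPKM for Zp1, Zp2 and Zp3 (SD, n = 4 each). Log2 fold changes on the log2(FPKM + 1) scale were -7.67 for Zp1 (standard error 0.24, limma adjusted p = 1.82e-08), -8.94 for Zp2 (standard error 0.30, limma adjusted p = 2.35e-08) and -9.20 for Zp3 (standard error 0.31, limma adjusted p = 2.35e-08). The exact permutation p was 0.0286 for each, again the smallest possible. That scale limits how far a gene near 0 can fall, and with a pseudocount of 0.1 the changes were -10.51 for Zp1, -11.65 for Zp2 and -11.76 for Zp3.

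Counted in reads, Zp1 had 16886 over the wild-type libraries and 10 over the knockout libraries, a 2085-fold lower rate (95% exact interval 1134 to 4349). Zp2 had 65200 and 25 reads, a 3220-fold lower rate (95% exact interval 2181 to 4977), and Zp3 had 37200 and 9 reads, a 5104-fold lower rate (95% exact interval 2688 to 11163). Figla had 24836 and 7161 reads. The limit that a count of 0 allows, 3 reads, corresponds to 0.104 to 0.158 FPKM for Zp1, 0.0757 to 0.115 FPKM for Zp2 and 0.156 to 0.237 FPKM for Zp3 over the knockout libraries.

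**Figure D1:**
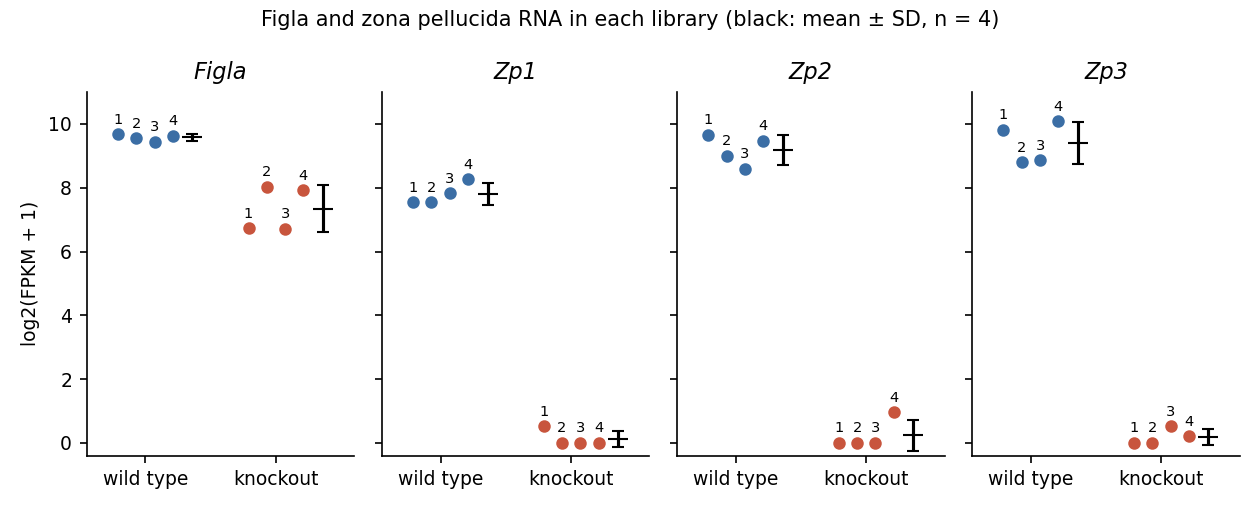
Level of Figla, Zp1, Zp2 and Zp3 in each library as log2(FPKM + 1), with 1 point per library labelled by replicate number and the mean ± SD (n = 4) in black. Figla keeps 103.9 to 261.5 FPKM in the knockout libraries, while every zona value there is 0.960 FPKM or less.

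All 4 genes were called lower, where 25.6% of the 11235 tested genes were called lower and 43.4% were called in either direction. The 4 genes did not overlap between genotypes, as was the case for 39.9% of tested genes in either direction and 24.0% in the lower direction. These counts describe the 4 genes and support nothing beyond that, since Zp1, Zp2 and Zp3 passed the filter (1 FPKM in at least 4 libraries) only through their wild-type libraries. Ranked from the most negative log2 fold change of all tested genes, Zp3 was at place 2, Zp2 at 3, Zp1 at 6 and Figla at 586. On the log2(FPKM + 1) scale, the place of a gene that falls to near 0 depends on its wild-type level. Tbpl2, with a wild-type mean of 51.9 FPKM and 0 in every knockout library, had a change of -5.59. The median log2 fold change of all tested genes was -0.12. Transcript GC content moved with genotype over all genes, which were split by GC content into 10 bins of equal size. The median log2 fold change of the 1122 tested genes in the same bin was -0.33 for Figla (GC 52.4%), -0.50 for Zp1 (55.1%), 0.22 for Zp2 (45.4%) and -0.57 for Zp3 (56.1%). Zp1 and Zp2 lay near the upper edge of their bins, and the next bins had medians of -0.57 and 0.08. With each library's trend against GC content removed, the changes were -1.99 for Figla, -7.26 for Zp1, -9.22 for Zp2 and -8.74 for Zp3. When the libraries rich in stromal and granulosa markers (wild-type replicate 3, knockout replicates 2 and 3) were left out, they were -2.30, -7.53, -8.89 and -9.46 in the same order. With limma-voom on recovered reads, where the size of a fall to near 0 depends on the prior count, they were -2.24, -12.23, -13.79 and -12.83.

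**Figure D2:**
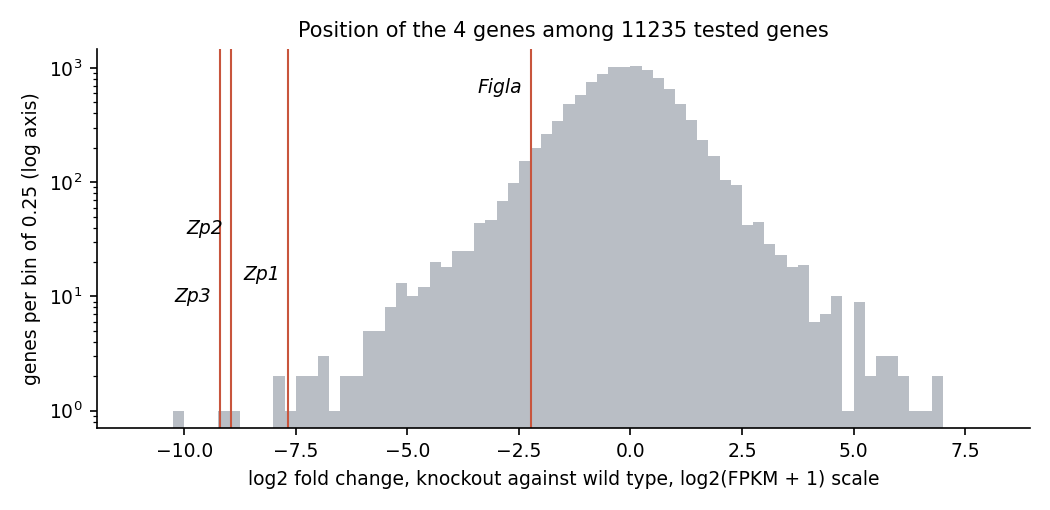
Histogram of log2 fold changes (knockout against wild type, log2(FPKM + 1) scale) of the 11235 tested genes, with genes per bin on a log axis and red lines at the 4 genes. Figla at -2.23 lies on the shoulder of the distribution, and the zona genes at -7.67 to -9.20 lie in its far lower tail.

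Most genes expressed at zona levels in wild type stayed measurable in knockout. Among the 175 tested genes with a wild-type mean between those of Zp1 and Zp3, both included, 73 were called lower and 7 had a knockout mean under 1 FPKM, beside 2880 and 830 of all 11235 tested genes. These 7 were Zp1, Zp2 and Zp3 together with Elobl, Nlrp14, Cox4i2 and Gdf9. Nlrp14 is an oocyte gene of the NLRP family, Gdf9 an oocyte growth factor gene and Cox4i2 a gene for a cytochrome oxidase subunit. The median log2 fold change of the 175 genes was -0.28. Among the 45 tested genes within 1.5-fold of the wild-type mean of Figla, 20 were called lower, beside the same 25.6% of all tested genes, and the median log2 fold change was -0.38.

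In wild type the order of mean levels per length was Figla, Zp3, Zp2 and Zp1. Figla and Zp3 did not differ beyond their spread, since the ratio of Zp3 to Figla within a library ran from 0.592 to 1.37. The same held for Zp3 and Zp2, whose ratio within a library ran from 0.868 to 1.54. Zp1 stood below both in all 4 libraries, with 1.72 to 4.39 times as much Zp2 and 2.05 to 4.86 times as much Zp3. Of the summed zona FPKM, Zp1 made up 15.4% ± 4.64, Zp2 39.3% ± 5.35 and Zp3 45.3% ± 5.55 (SD, n = 4). The share of Zp1 was lowest in replicate 1 (9.75%) and highest in replicate 3 (20.99%).

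The zona genes varied more between wild-type tubes than Figla did. The coefficient of variation was 25.7% for Zp1, 31.6% for Zp2 and 44.6% for Zp3 against 7.31% for Figla. Replicates 1 and 4 had the higher levels of both Zp2 and Zp3, and replicates 2 and 3 the lower. The summed zona level was 1894, 1141, 1076 and 2109 FPKM in wild-type replicates 1 to 4, or 2.31, 1.52, 1.55 and 2.65 times the Figla level of the same library. Replicate 3 combined the lowest sum with the lowest Figla level, and its sums of granulosa and stromal markers were the highest of the wild-type tubes.

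In knockout the sum of the zona genes was far smaller relative to the Figla RNA that remained. It was 0.432, 0, 0.444 and 1.12 FPKM in replicates 1 to 4, at most 0.00465 times the Figla level of the same library. Knockout replicate 2 had the highest Figla level (261.5 FPKM) and 0 reads of any zona gene. Replicate 4, with 240.5 FPKM of Figla, had 27 zona reads, and replicates 1 and 3, with the lower Figla levels, had 10 and 7. With 4 libraries per genotype and the genotypes far apart, a correlation of zona RNA with Figla was not computed.

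**Figure D3:**
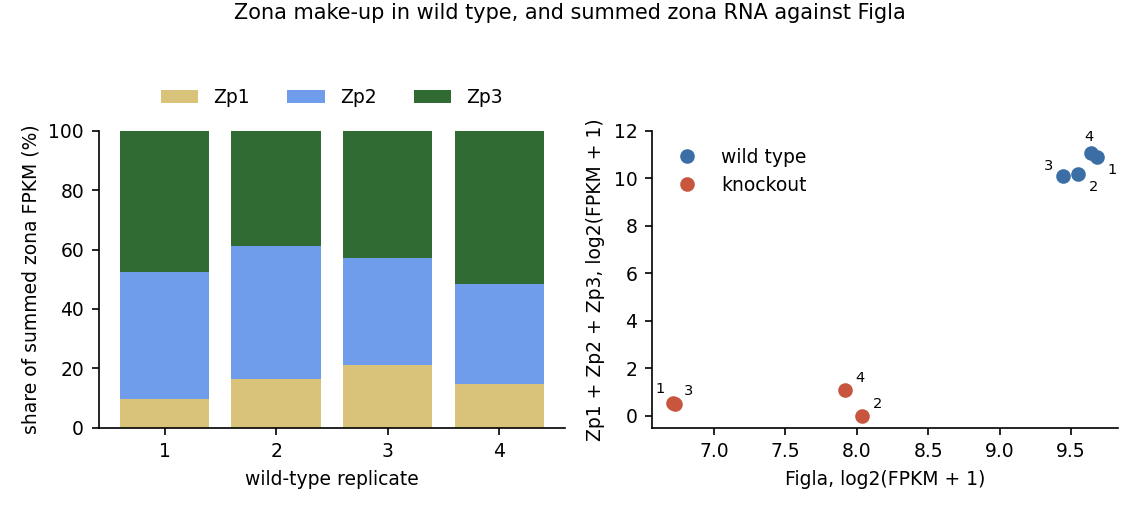
Left, share of Zp1, Zp2 and Zp3 in the summed zona FPKM of each wild-type library, in percent. Right, summed zona level against the Figla level, both as log2(FPKM + 1), with 1 point per library labelled by replicate number: the knockout libraries with the most Figla (replicates 2 and 4) have 0 and 1.12 FPKM of zona RNA.

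The genes whose profile over the 8 libraries was most like that of Figla were Sct, Tcte2, Anxa7, Ak4 and Atp4a. Likeness was the root mean square difference of log2(FPKM + 1) after each gene's wild-type mean was subtracted, and it was 0.27 to 0.32 for these genes. Anxa7, a gene for a calcium-dependent membrane-binding annexin, had 55.3 to 96.7 FPKM in wild type and 9.45, 28.4, 17.04 and 27.2 FPKM in knockout replicates 1 to 4. Replicates 2 and 4 were the highest in knockout, as for Figla, which its choice by likeness over these same libraries favours. Replicates 1 and 3 of Anxa7 lay apart, unlike those of Figla. Ak4, a mitochondrial adenylate kinase gene, had 22.9 to 40.5 FPKM and then 4.97, 9.93, 3.33 and 6.55 FPKM. Sct, Tcte2 and Atp4a were low genes, with wild-type means of 6.44, 8.24 and 7.55 FPKM, and a fold on this scale is limited for them.

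The genes most like the mean profile of the zona genes were Nlrp14, Elobl, Npm2, Gdf9 and Noto, at differences of 0.53 to 1.07. Compared gene to gene, the zona genes differed from each other by 0.43 (Zp2 and Zp3), 1.04 (Zp1 and Zp2) and 1.17 (Zp1 and Zp3). Figla differed from each zona gene by 3.89 to 4.97. Differences between single genes and differences from a mean profile are unlike measures and cannot be ranked together. Nlrp14 had 240.8, 225.7, 194.6 and 355.0 FPKM in wild type and at most 0.156 FPKM in knockout. Npm2, which encodes an oocyte histone chaperone, kept 0.324 to 2.19 FPKM in knockout against 287.9 to 681.4 FPKM in wild type. Elobl and Noto were at 0 in every knockout library, with wild-type means of 256.6 ± 98.4 and 152.6 ± 73.2 FPKM (SD, n = 4 each).

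Tcf3, a dimer partner gene of FIGLA, fell, and Id1 and Id3, genes for inhibitors of such partners, rose. E proteins are broadly expressed basic helix-loop-helix factors, and ID proteins bind them without binding DNA and so keep them from their sites. Of the 7 genes of both families, all tested, 1 fell, 3 rose and 3 did not pass the test, where 25.6% of all tested genes were called lower and 17.7% higher. Their median log2 fold change was 0.96, against -0.12 for all tested genes. Of the 3 that rose, Id4 (wild-type mean 0.721 FPKM) passed the filter through its knockout libraries. Tcf3, which encodes the E proteins E12 and E47, had 26.8, 31.6, 33.0 and 36.4 FPKM in wild-type replicates 1 to 4 and 5.23, 2.89, 9.23 and 4.76 FPKM in knockout replicates 1 to 4. The highest knockout library was thus well below the lowest wild-type library, and the log2 fold change was -2.41 (standard error 0.29, limma adjusted p = 0.000104). The Tcf3 transcript has a GC content of 61.0%, and after the GC correction the change was -1.67 (limma adjusted p = 0.00101). Tcf4 and Tcf12, the other E protein genes, had means of 4.07 and 12.5 FPKM in wild type and 7.83 and 18.3 FPKM in knockout. Neither passed the test (limma adjusted p = 0.147 and 0.200), though Tcf4 did with quantile normalization (limma adjusted p = 0.0315) and without knockout replicate 4 (limma adjusted p = 0.0495). After the GC correction the log2 fold change of Tcf4 was 0.088 (limma adjusted p = 0.870) against 0.69 without it.

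Among the inhibitors, Id1 had 82.6, 80.6, 73.8 and 52.3 FPKM in wild-type replicates 1 to 4 and 130.3, 365.2, 321.1 and 299.8 FPKM in knockout replicates 1 to 4. Every knockout library was higher than every wild-type library, with a log2 fold change of 1.85 (standard error 0.31, limma adjusted p = 0.000777). Id3 had 67.7, 86.4, 87.1 and 79.2 FPKM and then 108.2, 447.2, 299.9 and 175.1 FPKM, a log2 fold change of 1.48 (limma adjusted p = 0.00734). Knockout replicates 2 and 3, which had the highest summed stromal markers (288.4 and 324.8 FPKM), were also the highest for Id3. Without these 2 libraries and wild-type replicate 3 the change of Id3 was 0.82 (limma adjusted p = 0.0282) and that of Id1 was 1.48 (limma adjusted p = 0.0151). Id4, with a wild-type mean of 0.721 FPKM and a knockout mean of 4.68 FPKM, was called (limma adjusted p = 0.0355), but its call ended in 13 of 22 alternatives, among them every one that left out a wild-type library. It also ended without knockout replicate 2 (or 3) and after the GC correction (0.93 on the log2 scale, limma adjusted p = 0.165). Id2 had 87.5 ± 10.4 FPKM in wild type and 211.2 ± 153.1 FPKM in knockout (SD, n = 4 each), did not pass (limma adjusted p = 0.110), and passed without knockout replicate 1 (limma adjusted p = 0.00808). Its log2 fold change of 0.96 was 0.52 without knockout replicate 3 (limma adjusted p = 0.250) and 0.14 without the 3 libraries rich in stromal and granulosa markers (limma adjusted p = 0.743).

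**Figure D4:**
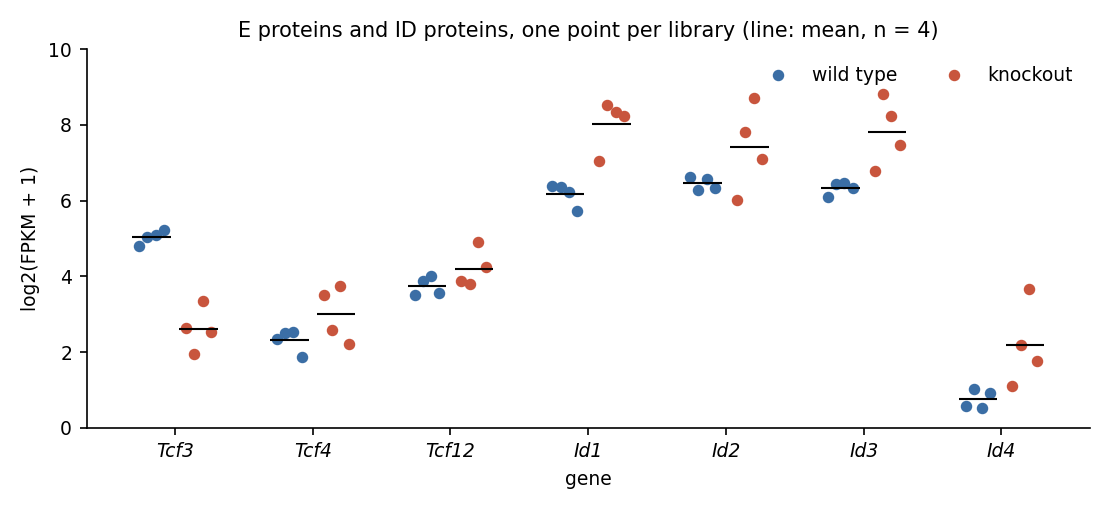
Levels of E protein genes (Tcf3, Tcf4, Tcf12) and ID genes (Id1 to Id4) as log2(FPKM + 1), with 1 point per library and a line at the mean (n = 4). Tcf3 points of the genotypes are apart in the lower direction (at most 9.23 FPKM in knockout) and those of Id1 in the higher direction (at least 130.3 FPKM in knockout).

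Other transcription factor genes of oocytes were examined next. Of 11 tested members 7 were lower, 0 were higher and 4 did not pass, beside 25.6% lower and 17.7% higher over all tested genes. Their median log2 fold change was -2.08, and Tbpl2 passed the filter only through wild type. An increase was called for 1 member without knockout replicate 3 and without the 3 libraries rich in stromal and granulosa markers. Tbpl2, an oocyte relative of the TATA-binding protein gene, had no reads in knockout, and its level was at least 1185-fold lower (3 reads over the 4 libraries taken as the floor). The fall in Nobox, an oocyte homeobox gene, was 10.4-fold and that in Foxo3, which keeps primordial follicles dormant, was 5.81-fold. Stat3, a gene for a cytokine-responsive factor, fell 3.68-fold. The call of Gtf2a1l, a germ cell relative of a TFIIA gene, ended without wild-type replicate 4 (-1.69 against -2.08 on the log2 scale, limma adjusted p = 0.0571). It also ended without the 3 libraries rich in stromal and granulosa markers (-1.33, limma adjusted p = 0.153). Knockout replicate 1, kept in that fit, had 8.33 FPKM of Gtf2a1l against 0.255 to 1.66 FPKM in the other knockout libraries. Without knockout replicate 1 the change was -2.65 (limma adjusted p = 0.00213).

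Genes for other parts of the egg surface and coat region were compared in the same way. Of the 10 genes listed, 8 were tested, 7 fell and 1 rose, where 25.6% of all tested genes were called lower and 17.7% higher. Their median log2 fold change was -3.83. Several of the 7 passed the filter only through wild type, so the count is a description. Astl encodes ovastacin, the protease that cleaves ZP2 after fertilization, and went from 32.4 ± 14.2 FPKM (SD, n = 4) to 0 reads, at least 1380-fold lower with the same floor. The same bound was 350.3-fold for Oosp2, an oocyte-secreted protein gene, and 851.2-fold for Bmp15, an oocyte growth factor gene. Izumo1r, which encodes the sperm receptor JUNO of the egg membrane, fell from 15.6 ± 4.57 to 0.719 ± 1.44 FPKM (SD, n = 4 each). The tetraspanin genes Cd9 and Cd81, whose products act at the egg membrane, went opposite ways. Cd9 fell 2.5-fold, from 138.3 ± 45.6 to 55.3 ± 9.39 FPKM, and Cd81 rose 3.04-fold, from 19.4 ± 5.2 to 58.8 ± 31.3 FPKM (SD, n = 4 each). The highest Cd81 level, 101.6 FPKM, was in knockout replicate 3, where immune and granulosa markers were highest. When the 3 libraries rich in stromal and granulosa markers were left out, its log2 fold change was 1.10 against 1.44 with all libraries, and Cd81 was called in each of the 23 alternatives. That fit kept knockout replicate 1, the tube highest in endothelial markers, which had 52.3 FPKM of Cd81. The lowest knockout level, 26.5 FPKM in replicate 4, lay close to the highest wild-type level, 26.2 FPKM in replicate 3. Oosp1 and Oosp3 did not pass the filter and had 316 and 24 reads over the wild-type libraries and 0 in knockout.

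Genes with a zona pellucida domain that are known from other tissues were low or absent. Of 11 listed, 10 were in the table and 3 passed the filter, namely Zpld1, Eng and Tgfbr3, with a median log2 fold change of 0.17. Zpld1 was called lower, from 4.27 ± 1.66 to 1.30 ± 2.44 FPKM (SD, n = 4 each, limma adjusted p = 0.0323). Its call ended in 11 of 22 alternatives, which include leaving out any library other than knockout replicate 4. Eng and Tgfbr3, genes for co-receptors of the TGF-beta family, did not pass (limma adjusted p = 0.595 and 0.790). Umodl1, a related gene counted with the egg surface list, was at 1.46 ± 0.211 FPKM in wild type and 0.0252 ± 0.0503 FPKM in knockout (SD, n = 4 each).

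The machinery that folds, glycosylates, cleaves and exports secreted glycoproteins such as the zona proteins formed the last list. Of its 22 tested genes 6 fell, 5 rose and 11 did not pass, which is near the 25.6% lower and 17.7% higher of all tested genes and is no result about the list. Their median log2 fold change was -0.38. Furin, a gene for a proprotein convertase of the secretory pathway, went from 10.3 ± 0.727 to 1.24 ± 0.489 FPKM (SD, n = 4 each), a log2 fold change of -2.35 (limma adjusted p = 6.19e-05) and of -1.29 with a pseudocount of 5. Sec61b and Sec61g, which encode subunits of the channel into the endoplasmic reticulum, fell 2.24-fold and 2.28-fold, and Sec61a1 of the same channel was at 32.6 ± 7.31 and 31.3 ± 7.52 FPKM (SD, n = 4 each). C1galt1c1 and C1galt1, the chaperone and the enzyme of core O-glycan synthesis, fell 4.69-fold and 3.05-fold, the latter not without wild-type replicate 3 or 4. Dad1, a subunit gene of the N-glycan transferase, fell 1.65-fold, while Ostc of the same complex rose 2.12-fold. Mgat2, an N-glycan branching enzyme gene, rose 2.43-fold. Rpn2, Calr and Pdia3 were the other members that rose, but of these 5 genes 2 were called when replicate 2 or 3 of wild type, or replicate 1, 2 or 4 of knockout, was left out, and 3 when replicate 4 of wild type was.

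**Figure D5:**
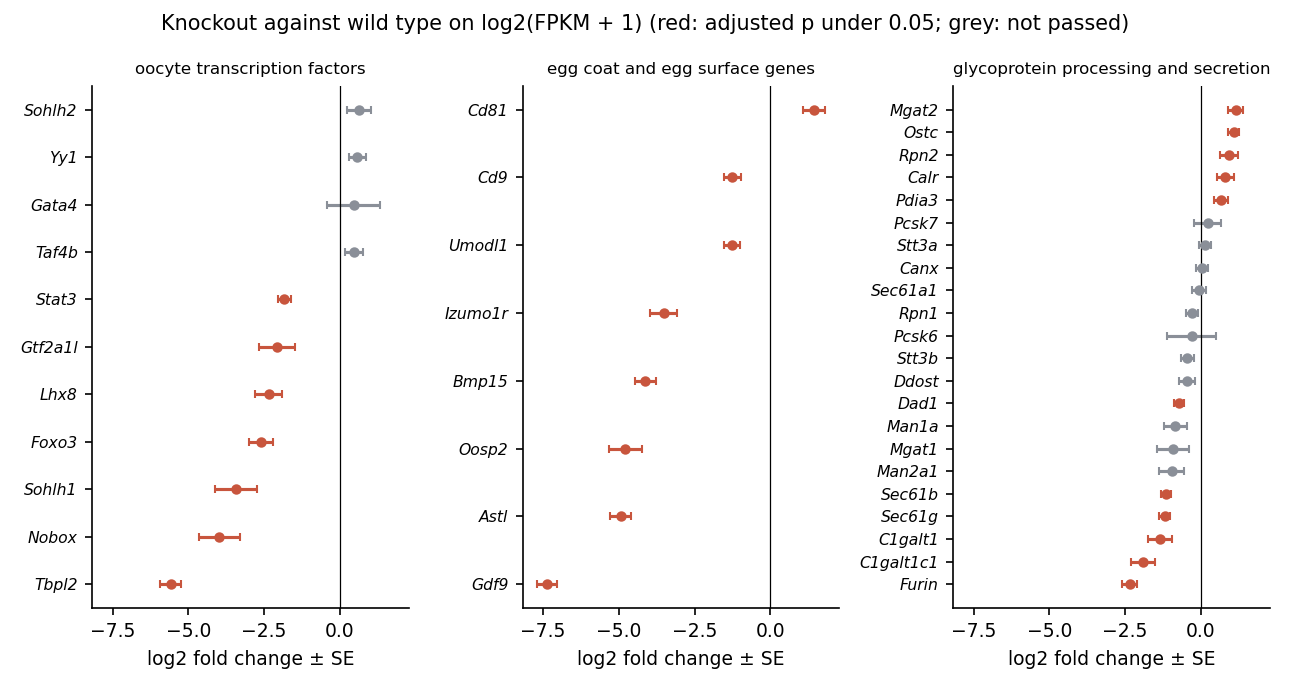
Log2 fold changes (knockout against wild type, log2(FPKM + 1) scale) with standard errors for tested members of 3 lists: oocyte transcription factors, egg coat and egg surface genes, and glycoprotein processing and secretion. Called genes are red and genes that did not pass are grey: 7 of 11 and 7 of 8 are called lower in the left and middle panels, and 6 of 22 in the right panel.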

How the data were processed

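RNA of 8 libraries, 4 wild type and 4 Rbpms2 knockout, was analysed. The table deposited by the authors holds FPKM for each gene in each library; cutadapt, HISAT2, HTSeq and GRCm38 (mm10) are named per the submitters' processing notes, while versions, annotation release and strand setting are not stated there. Symbols matched 21851 of 21959 genes, and exon lengths, GC content and coordinates came from GENCODE M21 (GRCm38). FPKM times union exon length came in steps of 1 read, with 97.4% to 97.6% of values per library whole within 0.02 reads. These steps gave depths, floors and the voom alternative only. The libraries of a genotype all differed beyond sampling noise (lowest chi-square of a pair 33.6 per degree of freedom).

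The filter kept genes at 1 FPKM or more in 4 or more libraries. limma 3.58.1 (R 4.3.3) fitted log2(FPKM + 1) with genotype alone, moderated by an eBayes trend, with Benjamini-Hochberg adjustment over all 11235 genes, with calls at adjusted p under 0.05. Fits with fewer libraries set the filter by the size of the smaller genotype. Steps were tested on simulated data. Fold values are ratios of mean FPKM unless reads are named. The exact interval of a read ratio is the Clopper-Pearson interval of the knockout share, and exact tests used scipy 1.17.1.

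The members and lists were chosen with earlier results of these data known. Named were the 4 genes, Rbpms2, per list the called members lowest in p (at most 4), members not called where a list had 3 or fewer, and the 5 genes nearest in profile. Further list members, genes at zona levels and neighbouring genes were named after their values were seen. Alternatives were other pseudocounts (0.1 and 5), filters, scalings, spread models, limma-voom scaled by total reads, a GC correction, the replicate block and left-out libraries.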

Additional observations from a re-analysis of the deposited data

Results flagged for a closer look

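Among the 4 genes and Rbpms2, with 10 groups of 4 libraries examined, 1 library stood apart from the others of its group in 2 cases, both where the other 3 libraries were at 0. Zp1 was at 0.432 FPKM in knockout replicate 1, and Zp2 was at 0.960 FPKM in knockout replicate 4. Where the other 3 libraries are at 0, any value above 0 is flagged, whatever its size. The usual chance rate of about 1 in 20 groups does not hold for such groups. Either value rests on few reads, 10 for Zp1 and 25 for Zp2.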

How the results depend on the processing

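Figla, Zp1, Zp2 and Zp3 stayed lower with adjusted p under 0.05 in each of the 23 alternatives run. The log2 fold change of Figla ran from -2.46 to -1.99, with the largest adjusted p at 0.00199. That of Zp1 ran from -12.23 to -5.47, of Zp2 from -13.79 to -6.81 and of Zp3 from -12.83 to -7.04, with the extremes from limma-voom and from a pseudocount of 5. Over all genes 2156 to 3177 were called lower against 2880, and 1571 to 2503 higher against 1991. The median log2 fold change of all tested genes moved from -0.12 to 0.00303 with median-of-ratios scaling and to 0.04 with quantile normalization, and the changes of the 4 genes kept their direction relative to it. Replicate numbers are shared between genotypes, and the labels do not say what a number stands for. Same-numbered libraries did not deviate together in every pair (correlations of deviations 0.19, 0.02, 0.36 and -0.05 for numbers 1 to 4). Between different numbers the correlation reached 0.33, for wild-type replicate 1 with knockout replicate 4. Whether same-numbered libraries share a batch cannot be told from these values. With the replicate block 2921 genes were called lower and 2113 higher, and Figla had -2.23 (limma adjusted p = 0.000421). Changes of genes at a few FPKM depend most on the pseudocount. Where Zp1, Zp2 or Zp3 had 0 reads in a knockout library, levels up to the 3-read limits given with their reads cannot be told from 0.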

Other observations

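The genes next to Figla and the zona genes on the chromosome were examined after the data were seen, taking the nearest gene of the table on each side. Of these 8 neighbours 7 were tested, 5 were called lower and 0 higher, where 25.6% of all tested genes were called lower. Add2, Ssc4d and Anks4b had knockout means under 1 FPKM and passed the filter through their wild-type libraries, so the count is a description. Dtx2, a gene for an E3 ubiquitin ligase of the Deltex family that lies 6176 bases from Zp3, went from 28.6 ± 4.59 to 3.06 ± 0.422 FPKM (SD, n = 4 each, log2 fold change -2.86, limma adjusted p = 6.38e-06). Ssc4d, on the other side of Zp3, went from 4.49 ± 3.25 to 0.454 ± 0.250 FPKM (limma adjusted p = 0.00494). Add2, a gene for a protein of the membrane skeleton that lies 7685 bases beyond Figla, went from 9.03 ± 3.53 to 0.456 ± 0.308 FPKM (limma adjusted p = 0.000106), whereas Dusp11 on the other side had 14.4 ± 1.39 and 12.8 ± 3.05 FPKM and did not pass (limma adjusted p = 0.519). Prpf19, a splicing factor gene 4728 bases from Zp1, went from 14.8 ± 2.36 to 4.66 ± 1.15 FPKM (limma adjusted p = 0.000744). Anks4b near Zp2 went from 7.31 ± 2.35 to 0.353 ± 0.705 FPKM (limma adjusted p = 0.000262). Tmem159 on the other side of Zp2 had 2.12 ± 1.32 and 7.06 ± 4.23 FPKM (limma adjusted p = 0.0598), and it was called higher in 5 of 22 alternatives, among them the replicate block and the fit without knockout replicate 4. The calls of the 5 lower neighbours held in every alternative in which they were tested.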
